A study of Mus musculus with 15 samples.

Results

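The opioid peptide and receptor genes were followed in thalamic RNA of control and Maged1-cKO mice given repeated injections of cocaine or saline. They were chosen by symbol, as the 3 precursor genes Penk, Pdyn and Pnoc and the 4 receptor genes Oprm1, Oprd1, Oprk1 and Oprl1, which makes 7 of the 25080 genes listed in every library. Each of the 7 was listed above 0 in all 14 libraries analysed. Of them, 6 had at least 1 TPM in at least 3 libraries and were tested, and Oprd1 was not.

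TPM, the unit of the tables, is a relative abundance per transcript length, so it can be compared between genes. Control mice carried a floxed Maged1 without Cre, and Maged1-cKO mice carried the floxed gene with a Vglut2-Cre driver, which acts in glutamatergic Vglut2 neurons only, so other cells of the tissue keep the gene. Animals of all 4 groups were 2 to 4 months old and had 3 days of saline habituation followed by 5 days of intraperitoneal injections, either 20 mg/kg cocaine or again saline. RNA came from unsorted whole thalamus, and there were 4 libraries each of control saline, control cocaine and cKO saline, and 2 of cKO cocaine. The study's methods call the samples independent, and the labels do not say whether a library is 1 mouse or several. Of the 15 samples listed, 1 (cKO cocaine replicate 3) was not analysed here.

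Opioid peptides are cut from large precursor proteins. Penk encodes the precursor of the enkephalins, Pdyn that of the dynorphins and Pnoc that of nociceptin. The receptors couple to inhibitory G proteins, which lower adenylyl cyclase activity, open potassium channels and close calcium channels. The mu receptor (Oprm1) and the delta receptor (Oprd1) respond to enkephalins, the kappa receptor (Oprk1) to dynorphins and the nociceptin receptor (Oprl1) to nociceptin. In the thalamus the mu receptor is well known from the midline and intralaminar nuclei, and the kappa receptor and its dynorphin ligand are widely studied in drug reward and stress.

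The labels were first checked against the targeted gene. After saline Maged1 was lower in the cKO group, but after cocaine it went against the labels. Its mean was 155.4 scaled TPM in control mice after saline and 73.5 after cocaine, and in cKO mice it was 71.7 and 163.9, where scaled TPM are TPM divided by the TMM factor of the library. Cocaine groups are called by what their labels say, and a direction drawn within a genotype or between genotypes after cocaine rests on those labels. The mean of both genotypes' cocaine effects keeps its value if the labels of the cocaine groups are exchanged. For 4 saline libraries (control saline 3 and 4, cKO saline 1 and 2) the genotype tag names the other genotype than the title, and the title was used. Maged1 was 149.9 and 151.3 scaled TPM in control saline 3 and 4, beside 153.1 and 167.2 in control saline 1 and 2. In cKO saline 1 and 2 it was 77.4 and 76.6, beside 68.2 and 64.6 in cKO saline 3 and 4. After saline Maged1 thus went with the titles and not with the tags. TPM keep no depth, so the counting error of each value is unknown. The 5 most abundant genes took 18.9 to 21.6% of the summed TPM in saline libraries and 36.0 to 41.6% in cocaine libraries. The scaling corrects for the effect of this shift on the level of the typical gene. Since the share separates all cocaine from all saline libraries, any further effect of it on single genes cannot be told apart from that of cocaine.

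The 3 precursors differ in what they can release, which their coding sequences show. An opioid core is the run of 5 codons that begins each enkephalin, dynorphin or nociceptin peptide. It is printed in capitals, with the 6 flanking bases on either side in lower case, 5′ to 3′ on the coding strand of the GENCODE M21 transcript (GRCm38). Penk lies on the minus strand at chr4:4133531-4138819, and its 7 cores all lie in exon 2 of 2. In 6 of them the fifth codon is methionine, as in the first at chr4:4134334-4134348, and in 1, at chr4:4133941-4133955, it is leucine. Pdyn, on the minus strand at chr2:129686565-129699844, has 3 cores, all with leucine and all in exon 4 of 4, the first at chr2:129688238-129688252. Pnoc, on the minus strand at chr14:65400673-65425472, has 1 core, in exon 3 of 4 at chr14:65404878-65404892, which begins with a phenylalanine codon in place of tyrosine. That first residue sets nociceptin apart from the classical opioid peptides.
Penk core 1: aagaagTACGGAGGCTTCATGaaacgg
Penk core 6: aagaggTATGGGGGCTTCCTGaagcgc
Pdyn core 1: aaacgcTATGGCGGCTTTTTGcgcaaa
Pdyn core 3: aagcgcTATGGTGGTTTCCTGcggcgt
Pnoc core 1: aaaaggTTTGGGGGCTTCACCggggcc

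The 6 bases before each of the 11 cores encode a pair of basic residues, the cutting signal of the prohormone convertases. Behind the core such a pair followed in 5 of 7 Penk copies and in 3 of 3 Pdyn copies, and none followed the Pnoc core. Whether a pair is cut, and so where each peptide ends, cannot be read from these letters. One Penk transcript therefore encodes 7 cores against 3 for Pdyn and 1 for Pnoc, so equal mRNA levels do not stand for equal numbers of encoded peptides.

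In level, Oprl1 and Oprm1 stood above the precursors, and Oprk1 and Oprd1 below them. Over the 14 libraries the mean was 14.8 scaled TPM for Oprl1, 12.9 for Oprm1, 7.89 for Penk, 4.16 for Pnoc, 2.71 for Pdyn, 1.68 for Oprk1 and 0.63 for Oprd1. The median gene tested had 7.19. Penk thus lay near the median gene, Oprl1 and Oprm1 above it and the other members below it.

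Within single libraries the order held mostly but not always. Oprl1 was above Oprm1 in 10 of 14 libraries, Oprm1 above Penk in 13, Penk above Pnoc in 13, Pnoc above Pdyn in 12, Pdyn above Oprk1 in 12 and Oprk1 above Oprd1 in 14. Oprl1 and Oprm1 are thus the neighbours that changed places most often.

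Spread between libraries differed widely among the members. Penk ranged from 2.82 to 20.3 scaled TPM, a 7.22-fold range with a coefficient of variation of 55.1%, at the 97.0th percentile of the tested genes. Oprl1 ranged from 13.0 to 16.8, with a coefficient of variation of 8.99%. The median tested gene had 10.7%. Penk is thus among the genes of these libraries that vary most, and Oprl1 the steadiest of the 6 tested members.

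**Figure D1:**
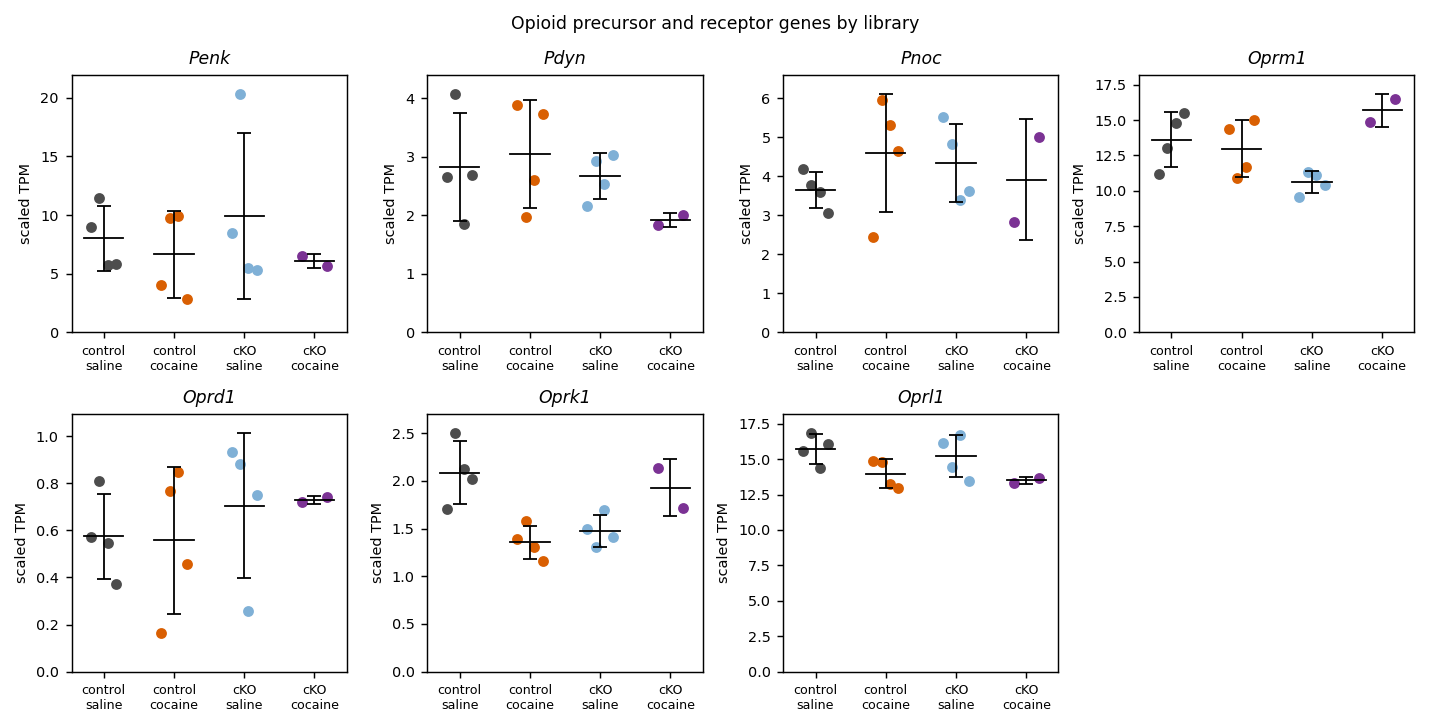
Scaled TPM (linear axis from 0) of the 7 opioid genes by group, with 1 point per library, a line at the group mean and bars of 1 SD. Oprm1 in both cKO cocaine libraries lies above the 4 cKO saline libraries, as for 22.6% of the tested genes. Oprk1 in the 4 control cocaine libraries lies below the 4 control saline libraries, as for 11.1% of them. Penk is carried by single high libraries such as cKO saline 2 at 20.3.

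Oprm1, the mu receptor gene on the plus strand at chr10:6758506-7038198, was the only member called between groups, a call being an adjusted p under 0.05 together with a log2 fold change of 0.5 or more in either direction. In order of replicate it had 11.2, 13.0, 14.8 and 15.5 scaled TPM in control saline and 14.4, 10.9, 11.7 and 15.0 in control cocaine. The cKO libraries had 9.57, 11.3, 11.1 and 10.4 after saline, and 14.9 and 16.5 after cocaine.
The control groups overlapped, while both cKO cocaine libraries were above all 4 cKO saline libraries, as happened for 22.6% of the 13471 tested genes. In cKO mice the mean rose from 10.6 ± 0.784 (SD, n = 4) to 15.7 ± 1.17 (SD, n = 2), which is 48.1% higher. The log2 fold change was 0.55 (SE 0.14, adjusted p = 0.0154, limma), and the exact permutation test gave p = 0.0667, the smallest that 2 libraries against 4 allow. In control mice it was -0.07 (95% limits -0.31 to 0.18, adjusted p = 0.694, limma).

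The call for Oprm1 rests on the labels of the saline and the cocaine groups and on few libraries. With the labels of the cocaine groups exchanged, the mean would go from 10.6 to 13.0 scaled TPM in cKO mice. In control mice it would go from 13.6 to 15.7, and these differences were not tested. The mean of both cocaine effects, which the exchange leaves as it is, was 0.24 (SE 0.09, adjusted p = 0.0552, limma). By the genotype tags the log2 fold change in cKO mice was 0.29 (adjusted p = 0.292, limma), and with the libraries whose title and tag agree it was 0.52 (adjusted p = 0.0750). Without cKO cocaine replicate 2 it was 0.47 (adjusted p = 0.146), and leaving out cKO saline replicate 1 also left it just short of the fold change minimum. On TPM as deposited, where the median gene was at -0.35, it was 0.17 (adjusted p = 0.340).

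Oprk1, the kappa receptor gene on the plus strand at chr1:5588466-5606131, was lower in control mice after cocaine. It had 1.70, 2.50, 2.13 and 2.02 scaled TPM in control saline and 1.39, 1.58, 1.30 and 1.16 in control cocaine. The values in cKO mice were 1.50, 1.30, 1.70 and 1.42 after saline, and 2.14 and 1.72 after cocaine.
All 4 control cocaine libraries lay below all 4 control saline libraries (exact permutation p = 0.0286, two-sided and the lowest possible with 4 against 4), a pattern shared by 11.1% of the tested genes. The mean dropped by 35.0%, from 2.09 ± 0.331 to 1.36 ± 0.172 scaled TPM (SD, n = 4 each). On the log2 scale the difference was -0.47 (SE 0.11, adjusted p = 0.00819, limma), which passed the p threshold and fell short of the fold change minimum. Since 0.5 is added before the logarithm, this value understates the change of so low a gene.

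In cKO mice Oprk1 went the other way. Both cocaine libraries were above all 4 saline libraries, as for 22.6% of the tested genes. The log2 difference was 0.29 (SE 0.13, adjusted p = 0.143, limma), which did not pass. The difference between the genotypes' cocaine effects, the interaction, was 0.77 (SE 0.17, 95% limits 0.39 to 1.14). Its p was 0.000716 before adjustment over all genes and 0.0520 after it (limma), so it narrowly missed the threshold. Oprm1 had an interaction of 0.61 (SE 0.18, adjusted p = 0.0965, limma) in the same direction.

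The lower Oprk1 in control mice also depended on the labels. By the genotype tags the log2 fold change was -0.25 (adjusted p = 0.276, limma), and with the libraries whose title and tag agree it was -0.47 (adjusted p = 0.101). With pseudocount 0.1, or without control saline replicate 1 or control cocaine replicate 2, Oprk1 passed the fold change minimum too.

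Oprl1, the nociceptin receptor gene on the plus strand at chr2:181715016-181720985, shifted little and alike in both genotypes. It had 15.6, 16.8, 14.3 and 16.1 scaled TPM in control saline and 14.9, 14.8, 13.2 and 13.0 in control cocaine. After saline the cKO libraries had 16.2, 14.5, 16.7 and 13.5, and after cocaine 13.3 and 13.7.
The cocaine and saline groups overlapped in each genotype. The log2 fold change was -0.16 in control (adjusted p = 0.118, limma) and -0.16 in cKO (adjusted p = 0.228, limma), and the interaction was 0.00 (95% limits -0.24 to 0.25). The mean of both cocaine effects was -0.16 (SE 0.06, adjusted p = 0.0452, limma), where 33.1% of the tested genes had an adjusted p under 0.05. Across the alternatives and left-out libraries that adjusted p ran from 4.27e-05 to 0.126, so this small difference lies at the edge of the threshold.

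Oprd1, the delta receptor gene on the minus strand at chr4:132110726-132144486, was the member with the lowest level, at the 44.7th percentile of all listed genes. It had 0.57, 0.81, 0.55 and 0.37 scaled TPM in control saline and 0.17, 0.77, 0.85 and 0.46 in control cocaine. In cKO mice it had 0.93, 0.88, 0.26 and 0.75 after saline, and 0.72 and 0.74 after cocaine.
The groups overlapped throughout. In a fit without the filter on low genes its log2 difference between cocaine and saline was -0.06 (SE 0.24) in control and 0.07 (SE 0.30) in cKO, with adjusted p = 0.923 and 0.931 (limma). A difference of the size seen for Oprm1 could not be resolved at this spread.

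The composition of the receptor genes needs no scaling between libraries, since it is a share within each one. Oprl1 made up 41.9 to 57.4% of the summed receptor TPM and Oprm1 34.0 to 50.7%, so these 2 genes carried most of the receptor mRNA in every library. Oprm1 held 34.0 to 40.4% in cKO saline and 47.8 to 50.6% in cKO cocaine. Oprk1 held 5.86 to 7.55% in control saline and 3.93 to 5.62% in control cocaine. Neither pair of ranges overlapped, and the ratio of Oprm1 to Oprl1 was below 1 in all 4 cKO saline libraries, 0.592 to 0.781, and above 1 in both cKO cocaine libraries, at 1.11 and 1.21. Oprl1 did not overlap in cKO either, at 51.7 to 57.4% after saline and 41.9 to 43.0% after cocaine. Oprm1 and Oprk1 are given where their levels were already apart, so these shares are not separate results. How often shares of other genes separate was not counted. A share or ratio shows unequal change between the genes, not which of them changed.

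**Figure D2:**
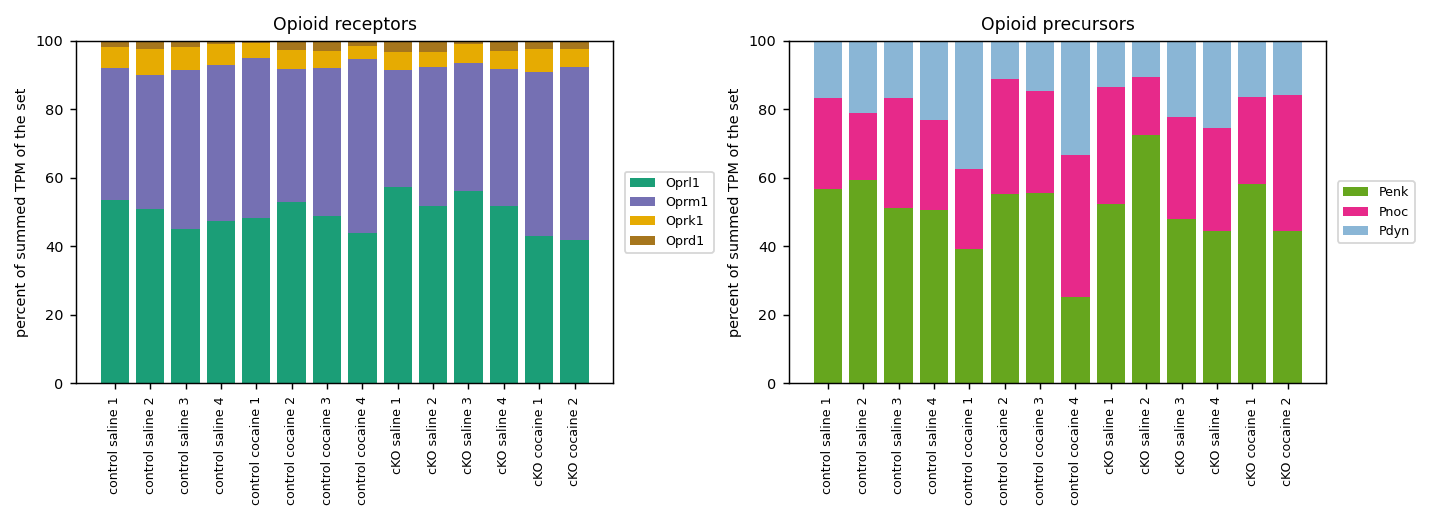
Stacked bars (percent, from 0) of each receptor gene in the summed TPM of the 4 receptor genes, left, and of each precursor gene in the summed TPM of the 3 precursor genes, right, with 1 bar per library. Oprl1 and Oprm1 fill most of each receptor bar, and the Penk share of the precursors varies from 25.1% in control cocaine 4 to 72.4% in cKO saline 2.

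The precursor genes did not pass the test in either genotype. Penk, the enkephalin precursor, had 8.95, 11.5, 5.73 and 5.87 scaled TPM in control saline and 4.08, 9.75, 9.94 and 2.82 in control cocaine. In cKO mice it had 8.47, 20.3, 5.50 and 5.32 after saline, and 6.51 and 5.63 after cocaine.
Its groups overlapped, and the libraries lay furthest apart within control cocaine and cKO saline. The log2 fold change was -0.37 in control (95% limits -1.32 to 0.59, adjusted p = 0.577, limma) and -0.46 in cKO (95% limits -1.62 to 0.71, adjusted p = 0.598). Without cKO saline replicate 2 the value in cKO was -0.05, and without control cocaine replicate 4 the value in control was -0.06.

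Pdyn, the dynorphin precursor, had 2.66, 4.08, 1.86 and 2.69 scaled TPM in control saline and 3.89, 1.97, 2.60 and 3.74 in control cocaine. The cKO libraries had 2.16, 2.94, 2.54 and 3.03 after saline, and 1.84 and 2.00 after cocaine. The control groups overlapped, and both cKO cocaine libraries were below all 4 cKO saline libraries, as for 21.1% of the tested genes.
In cKO mice the log2 fold change was -0.38 (SE 0.25, adjusted p = 0.315, limma), and in control mice it was 0.10 (95% limits -0.35 to 0.54, adjusted p = 0.763). The interaction was -0.48 (SE 0.33, adjusted p = 0.477), with limits of -1.18 to 0.23.

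Pnoc, the nociceptin precursor, had 4.18, 3.77, 3.60 and 3.07 scaled TPM in control saline and 2.46, 5.96, 5.33 and 4.65 in control cocaine. In cKO mice it had 5.52, 4.83, 3.40 and 3.62 after saline, and 2.82 and 5.01 after cocaine. Control cocaine replicate 1 was the lowest library and replicate 2 of the same group the highest, so the group spans all the others.
The log2 fold change was 0.24 in control (95% limits -0.26 to 0.75, adjusted p = 0.481, limma) and -0.16 in cKO (95% limits -0.78 to 0.47, adjusted p = 0.744). Without cKO cocaine replicate 1 the value in cKO turned to 0.21.

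Between genotypes none of the members passed. After saline Oprk1 was lower in cKO than in control by a log2 difference of -0.38 (SE 0.11, adjusted p = 0.124, limma), with all 4 cKO libraries below all 4 controls, as for 6.44% of the tested genes. Oprm1 was at -0.34 (SE 0.11, adjusted p = 0.163) with overlapping groups. In the cocaine libraries Oprk1 was at 0.39 (SE 0.13, adjusted p = 0.309, limma), with both libraries labelled cKO above the 4 labelled control, as for 7.86% of the tested genes, and Oprm1 was at 0.27 (SE 0.14, adjusted p = 0.463).

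Ordered by group mean, Oprk1 ran from control saline (2.09) over cKO cocaine (1.93) and cKO saline (1.48) to control cocaine (1.36), and only cKO cocaine and cKO saline were neighbours whose libraries did not overlap. Oprm1 ran from cKO cocaine (15.7) over control saline (13.6) and control cocaine (13.0) to cKO saline (10.6), with overlap between all neighbours. Of the precursors, Pdyn ran from control cocaine (3.05) over control saline (2.82) and cKO saline (2.67) to cKO cocaine (1.92), and only the last 2 did not overlap. For Penk, Pnoc, Oprl1 and Oprd1 all neighbouring groups overlapped. The comparisons share groups with each other, so their values are not independent.

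**Figure D3:**
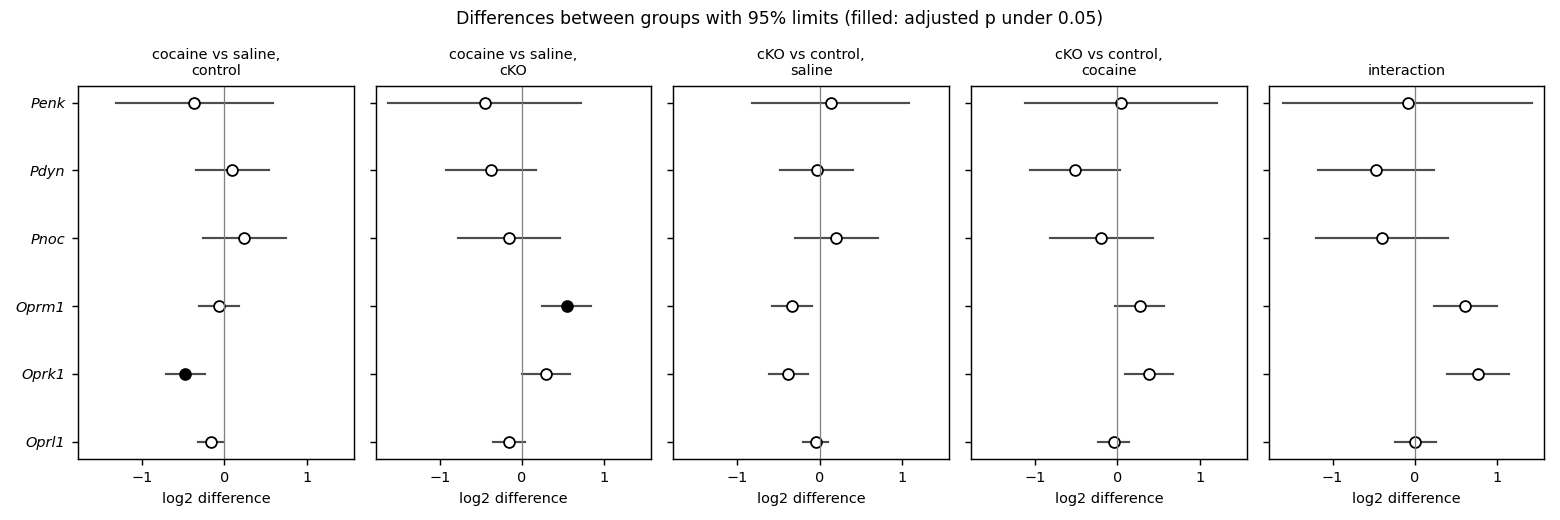
Log2 differences (points) with 95% limits (lines) of the 6 tested members in 5 comparisons, on 1 shared axis, filled where the adjusted p was under 0.05. The filled points are Oprk1 in control mice at -0.47 and Oprm1 in cKO mice at 0.55, and the limits are widest for Penk.

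Counted against the background of all genes, the members did not stand out. In control mice 0 of 6 tested members were called (limma) where 3.08% of the 13471 genes were, with 1 member (Oprk1) against 24.4% of the genes at an adjusted p under 0.05 alone. At an unadjusted p under 0.05 there were 2 members, against 37.1% of the genes. In cKO mice 1 of 6 (Oprm1) was called against 3.14%, the same 1 had an adjusted p under 0.05 against 20.2%, and 2 members had an unadjusted p under 0.05 against 34%.
For cKO against control 0 of 6 were called after saline (background 0.052%) and 0 of 6 after cocaine (0.0371%). For the interaction it was 0 of 6 (0.802%), and for the mean of both cocaine effects 0 of 6 (2.07%). At an unadjusted p under 0.05 there were 2 members for the saline genotypes against 16.7% of the genes, 1 for the cocaine genotypes against 11.9%, 2 for the interaction against 18.1% and 2 for the mean effect against 42.9%. The median log2 fold change of the 6 was -0.12 in control and -0.16 in cKO, against 0.00 and 0.01 over all tested genes.

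Whole thalamus holds many nuclei and some neighbouring tissue, and fewer cells of a type and less RNA per cell cannot be told apart in it. The labelled tissue was checked by its markers. Relay neuron genes such as Tcf7l2, Lef1 and Prkcd had 0 of 9 absent and summed in control mice to 448.0 to 615.2 scaled TPM after saline and 637.7 to 863.7 after cocaine, without overlap, and in cKO mice to 563.4 to 712.4 and 578.9 to 705.9. In control mice 8 of 9 relay markers were higher after cocaine, 5 of them with an adjusted p under 0.05 (limma, median log2 fold change of the list 0.47), and in cKO mice 6 were higher, 0 of them at that threshold, and 1 of the other 3 was lower at it. The relay sum thus rose in control cocaine, where Oprk1 was lower, and its part in that difference was not tested. The 4 midline markers (Calb2, Col12a1, Gal, Necab1) summed in control mice to 165.3 to 189.0 after saline and 100.3 to 154.9 after cocaine, and in cKO mice to 79.4 to 152.0 and 176.6 to 180.5. This is the pattern of Oprk1, and of Oprm1 within cKO mice: lower in control after cocaine for 4 of 4 markers (2 with adjusted p under 0.05, limma) and higher in cKO for 4 of 4 (1 with adjusted p under 0.05). Calb2, for example, had a log2 fold change of -0.69 in control and 0.95 in cKO. These directions were not particular to the midline list. Of the habenula markers 9 of 10 were lower in control after cocaine and 10 of 10 higher in cKO. All 5 tested markers of choroid plexus and ependyma were lower in control and higher in cKO. In these 2 lists only 1 marker, of choroid plexus and ependyma in cKO, had an adjusted p under 0.05 (limma). Hypothalamic markers were lower in control after cocaine for 8 of 8 tested, 4 of them with an adjusted p under 0.05 (limma, median log2 fold change -1.68). In cKO mice 4 of the 8 were higher and 4 lower. Between the saline groups 8 of 8 were lower in cKO than in control, 1 of them with an adjusted p under 0.05 (limma). The part of any of these markers in the receptor differences was not tested.

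Neighbouring tissue varied as well. The 10 habenula markers summed in control mice to 70.5 to 103.2 scaled TPM after saline and 13.4 to 222.3 after cocaine, and in cKO mice to 13.6 to 64.1 and 39.7 to 84.2. Hypothalamic genes (11, led by Oxt, Avp and Pmch) summed to 134.0 to 465.9 in control saline, while the other groups had 3.91 to 146.5, with Oxt at 0 in 3 of the 4 control cocaine libraries. The 10 striatal markers summed to 21.9 to 39.3 in 13 libraries and to 64.9 in cKO saline 2, the library with the highest Penk. Penk is abundant in the striatum and in parts of the hypothalamus, and the part of either tissue in its spread was not tested. Inhibitory neuron markers (7 genes) summed to 38.7 to 326.0, markers of cortex and hippocampus (6) to 61.3 to 110.2, and those of choroid plexus and ependyma (7) to 5.41 to 1451. Glial and vessel markers were steadier, at 1126 to 1952 for oligodendrocytes, 95.2 to 127.9 for astrocytes, 32.0 to 39.8 for microglia and 19.6 to 28.2 for endothelium.

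**Figure D4:**
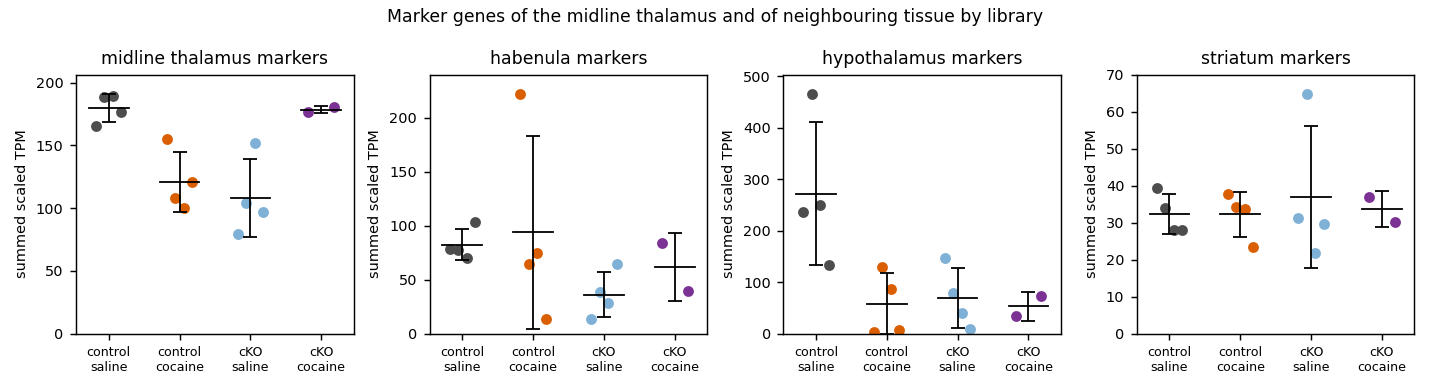
Summed scaled TPM (linear axis from 0) of the marker genes of the midline thalamus (4), habenula (10), hypothalamus (11) and striatum (10), with 1 point per library, a line at the group mean and bars of 1 SD cut at 0. The midline sums of control saline (165.3 to 189.0) and cKO cocaine (176.6 to 180.5) lie above those of the other groups, and 1 cKO saline library stands out in the striatal sum at 64.9.

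The genes whose level followed each receptor most closely over the 14 libraries are given as a description, since all points share the same groups and scaling. Among 8325 or 8326 tested genes with a mean of at least 5 TPM, those nearest to Oprm1 by Pearson correlation of log2 scaled TPM were Gbx2 (r = 0.94), a homeobox gene of thalamic development, Rimbp2 (0.89), a presynaptic active zone gene, and Nbl1 (0.88), a secreted BMP antagonist. Oprk1 was followed by Bbs9 (0.89), Ids (0.89), a lysosomal sulfatase, and Pcbd1 (0.89), and Maged1 itself ranked 25 of 8326 with r = 0.81. Oprl1 was followed by Btbd10 (0.90), Glod4 (0.87) and Mir6374 (0.85), whose short transcript makes its TPM less certain.

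The precursors had looser neighbours. For Penk these were Ctps (0.80), a CTP synthase, Gfra2 (0.79), a neurturin receptor, and Pmch (0.77), the precursor of melanin-concentrating hormone and one of the hypothalamic markers. For Pdyn they were Exosc2 (0.75), Ppp1r8 (0.74) and Afg3l1 (0.72), and for Pnoc they included Pcbp4 (0.85) and Kif5a (0.83), a neuronal kinesin. Between members r ran from -0.49, for Penk with Oprm1, and -0.43, for Pnoc with Oprm1, to 0.42, for Penk with Pnoc, and 0.45, for Oprk1 with Oprl1, and Oprm1 with Oprk1 had 0.33.

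The genes around opioid signalling were followed in 7 lists with 62 symbols, of which 60 were in the tables and 59 were tested. In control mice 14 had an adjusted p under 0.05 and were higher after cocaine and 7 were lower, with 1 call, and in cKO mice 9 were higher and 10 lower, with 3 calls. Their median log2 fold change was 0.03 in control and 0.00 in cKO, against 0.00 and 0.01 for all tested genes. At an adjusted p under 0.05 these were 35.6% of the 59 in control and 32.2% in cKO, where 24.4% and 20.2% of all tested genes passed. Called genes made up 1.69% and 5.08% of the 59, against 3.08% and 3.14% of all tested genes. The counts of single lists given next are at an adjusted p under 0.05 and have the same backgrounds of 24.4% and 20.2%.

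Peptide maturation genes cut and trim the precursors, and in control mice 0 of 7 had an adjusted p under 0.05 (log2 fold changes -0.15 to 0.13). In cKO mice Pcsk1n, the endogenous inhibitor of the convertase encoded by Pcsk1, rose by 0.60 (SE 0.07, adjusted p = 0.000314, limma), and its interaction was 0.67 (SE 0.09, adjusted p = 0.00686). After saline it was already lower in cKO than in control by a log2 difference of -0.39 (adjusted p = 0.0161, limma), as the only 1 of the 59 genes to pass there, where 0.178% of all tested genes did, so its rise in cKO mice starts from a lower level. The convertase genes were at -0.15 (Pcsk1) and 0.11 (Pcsk2) in control and at -0.20 and 0.12 in cKO. Of 6 tested peptide breakdown genes 1 was higher and 2 lower in each genotype. Among them, Lnpep, a membrane aminopeptidase, was at -0.30 in control and -0.44 in cKO (adjusted p = 0.000564 and 0.000314, limma), below the fold change minimum in both.

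G protein subunit genes held the call shared by both genotypes. Gng3, a neuronal gamma subunit, rose by 0.54 in control (SE 0.05, adjusted p = 5.22e-05, limma) and by 0.70 in cKO (SE 0.06, adjusted p = 7.12e-05), with a mean effect of 0.62 (adjusted p = 1.19e-06). Of the 11 subunit genes 4 were higher and 2 lower in control, and 4 higher and 1 lower in cKO. The main inhibitory alpha subunit of neurons, Gnao1, was at 0.25 and 0.23.

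Over the 7 lists 6.78% of the 59 genes had an interaction with an adjusted p under 0.05 (limma), against 1.28% of all tested genes. Of these, Pcsk1n was positive at 0.67, and 3 genes that act behind the G proteins were negative. Rgs4, which speeds the shut-off of inhibitory G proteins, was at 0.43 in control (SE 0.13, adjusted p = 0.0311, limma) and fell by 0.50 in cKO (log2 fold change -0.50, SE 0.16, adjusted p = 0.0433), with an interaction of -0.93 (SE 0.21, adjusted p = 0.0489). Adcy1, a calcium-stimulated adenylyl cyclase, was at 0.38 in control and -0.48 in cKO, with an interaction of -0.86 (SE 0.19, adjusted p = 0.0479). Cacna2d1, an auxiliary calcium channel subunit, was at -0.09 in control and -0.45 in cKO, with an interaction of -0.36 (SE 0.07, adjusted p = 0.0431), below the fold change minimum. These 3 negative interactions had the opposite sign to those of Oprm1 and Oprk1, while that of Pcsk1n had the same sign. All of them rest on the labels of the cocaine groups. With these exchanged, mean scaled TPM of Pcsk1n would go from 191.7 to 222.0 in control and from 146.0 to 182.9 in cKO. Rgs4 would go from 63.2 to 59.2 and from 83.5 to 84.9, and Adcy1 from 43.0 to 46.6 and from 65.5 to 55.9. Cacna2d1 would go from 17.0 to 14.5 and from 20.0 to 15.9. Under the genotype tags 0 of the listed genes had a called interaction against 3 by the titles, and leaving out any 1 of 11 libraries (all but control cocaine 1, cKO saline 3 and cKO saline 4) left 1 such gene.

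Among the 11 genes of adenylyl cyclases and protein kinase A, 3 were higher and 2 lower in control and 1 higher and 2 lower in cKO. Of the 7 channel genes 2 were higher and 0 lower in control, and 0 higher and 2 lower in cKO. The 14 tested desensitization and RGS genes counted 3 higher and 1 lower in control and 2 and 2 in cKO. Of the other opioid precursor and binding genes, Ogfr was higher in control at 0.25 (adjusted p = 0.0127, limma) and Opcml lower in cKO at -0.33 (adjusted p = 0.0130). Pomc, the beta-endorphin precursor, had 0.87 to 2.48 scaled TPM over the 14 libraries and no adjusted p under 0.05 for cocaine in either genotype.

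**Figure D5:**
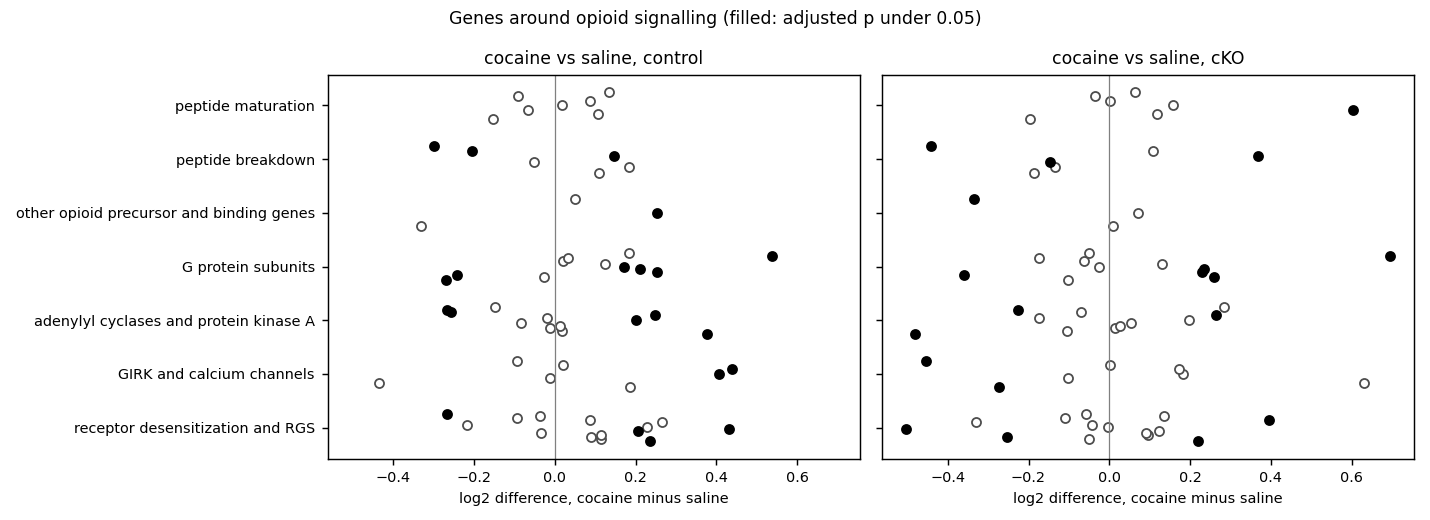
Log2 differences between cocaine and saline for the 59 tested genes of the 7 lists, control left and cKO right, with 1 point per gene, filled where the adjusted p was under 0.05. Gng3 lies furthest to the right in control at 0.54 and in cKO at 0.70, and the lists have points on both sides of 0.

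Promoter windows, 250 bases before to 50 after a gene's start, were found for 4 of the 7 members in RefSeq (GRCm38.p6): Pdyn, Oprm1, Oprd1 and Oprl1. They are shown for the receptor called in cKO mice and for the receptor with the lowest level, which differ in base composition. The Oprm1 window at chr10:6788320-6788619 (plus strand), 1 of 3 listed for the gene, has 52.0% G and C and 4 CpG. The Oprd1 window at chr4:132144437-132144736 (minus strand) has 79.3% and 43 CpG, at the 98.7th percentile of G and C among 32851 windows. Both are read 5′ to 3′ on the strand of the gene, with matches to the GC box in capitals.
Oprm1 window 2: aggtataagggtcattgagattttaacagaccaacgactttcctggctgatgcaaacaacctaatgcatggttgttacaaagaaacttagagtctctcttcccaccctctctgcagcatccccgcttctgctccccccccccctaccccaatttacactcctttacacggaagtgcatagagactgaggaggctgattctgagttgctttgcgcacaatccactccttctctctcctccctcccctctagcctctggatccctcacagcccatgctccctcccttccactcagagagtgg
Oprd1 window 1: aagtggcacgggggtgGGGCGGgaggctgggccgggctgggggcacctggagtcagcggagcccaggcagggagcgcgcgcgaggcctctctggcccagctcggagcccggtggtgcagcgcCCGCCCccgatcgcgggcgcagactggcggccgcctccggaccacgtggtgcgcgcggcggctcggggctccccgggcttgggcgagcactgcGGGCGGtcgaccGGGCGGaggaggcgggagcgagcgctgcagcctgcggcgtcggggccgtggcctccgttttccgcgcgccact

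Searched on both strands, the GC box GGGCGG was present 4 times in the Oprd1 window and 0 times in the 3 Oprm1 windows, and 35.7% of all windows hold it. The cyclic AMP response element TGACGTCA (1.79% of windows) and its shorter core TGACG (20.8%) were in none of the windows of the 4 genes. The TATA box TATAAA (13.6%) was present once, in an Oprl1 window. A match is a description of these letters and not a binding site, and an absent match says only that the letters are not in these windows.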

How the data were processed

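According to the study's methods, the authors mapped paired reads to GRCm38 with STAR 2.5.3a, quantified them with salmon and deposited 1 table per library of TPM by gene symbol. In 2 of the 14 deposited tables the TPM have a decimal comma, read here as a point. Libraries were prepared with a strand-specific kit. TPM keep no depth, so the counting error is unknown.

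TPM were divided by unweighted TMM factors (each side trimmed by 30% for log ratios and 5% for mean values). Then log2(value + 0.5) was taken, so fold changes of low genes are understated. The 13471 genes reaching 1 TPM in 3 or more libraries were fitted in limma 3.58.1 (R 4.3.3) with 1 mean per title group and an intensity trend. P-values were adjusted by Benjamini-Hochberg over all tested genes, and calls needed an adjusted p under 0.05 and a log2 fold change of 0.5 or more in size, after the thresholds of the study. Single values were also compared by two-sided exact permutation tests. Their p-values are the share of regroupings of the libraries with a mean difference at least as large, so the group sizes limit how low they can be. The procedure was tested on simulated data.

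The 7 members, the 7 pathway lists and the 12 marker lists were chosen with earlier results of these data known. Named genes are the members, Maged1, called genes of the pathway lists (at most 4 per comparison), the 3 genes most correlated with each tested member, and markers. A midline marker, left out of that list's sums and counts, and a correlated gene are not reported here. Others, such as Lnpep, Gnao1, Cacna2d1, Pcsk1, Pcsk2, Ogfr, Opcml and Pomc, were named after their values were seen. Alternatives changed the scaling (none, median of ratios, quantile), the pseudocount (0.1, 1), the filter (none, mean of 5 TPM), the model (only the groups compared, without the trend, with a replicate block), the grouping (genotype tags, or libraries whose labels agree) and the fold change minimum (none), or left out 1 library. Coordinates and coding sequences came from GENCODE M21 (GRCm38), promoter windows from RefSeq.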

Additional observations from a re-analysis of the deposited data

Results flagged for a closer look

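Oprk1 met the rule for opposite directions in the genotypes. Every control cocaine library was below every control saline library, as for 11.1% of the tested genes. Both cKO cocaine libraries were above every cKO saline library, as for 22.6% of them. The test of that difference, the limma interaction, gave a log2 value of 0.77 with an adjusted p of 0.0520 over all tested genes, which missed the threshold. By the genotype tags the interaction was 0.33. The opposite directions also rest on the labels of the cocaine groups, which Maged1 goes against. Mean Oprk1 was 2.09 scaled TPM in control saline and 1.36 where the label reads control cocaine. In cKO saline it was 1.48, and 1.93 where the label reads cKO cocaine. With the labels of the cocaine groups exchanged the directions would no longer be opposite. Both means would then be slightly lower after cocaine, with overlapping libraries in each genotype. The mean of both cocaine effects, which the exchange leaves as it is, was -0.09 (SE 0.09, adjusted p = 0.464, limma). Maged1 and the midline thalamus markers move in the same pattern over the 4 groups. Most markers of the habenula and of choroid plexus and ependyma also had these directions within each genotype. The part of these genes was not tested. In the 21 groups of 4 libraries examined for the 7 members, 0 libraries stood apart by Dixon's test.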

How the results depend on the processing

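TPM as deposited, without scaling, shift the median gene by -0.34 in control and -0.35 in cKO mice after cocaine. On that scale 2 members were called in control (Oprk1, Oprl1), 2 in cKO (Pdyn, Oprl1) and 2 for the mean effect (Penk, Oprl1), and Oprm1 in cKO was at 0.17. Reversed on it were Pdyn (-0.22) and Pnoc (-0.087) in control, Oprk1 in cKO (-0.0072) and the mean effect on Oprm1 (-0.13). A pseudocount of 0.1 gave 1 call in control, as did no fold change minimum, which also gave 1 for the mean effect.

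By the genotype tags 0 members were called in cKO, and the values of Pnoc (-0.041) and Oprm1 (0.19) in control, Penk (0.10) and Pnoc (0.13) in cKO, and Oprm1 (0.18) and Oprk1 (0.056) between the saline genotypes reversed. With the libraries whose labels agree 0 members were called in cKO, and Pdyn (-0.14) and Oprm1 (0.089) in control and Penk (0.15) and Pnoc (0.095) in cKO reversed.

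With 1 library left out, members called ranged from 0 to 1 in control, from 0 to 1 in cKO and from 0 to 1 for the interaction (Oprk1 without control saline 1, control cocaine 1 or control cocaine 2). In control the value of Pdyn ranged from -0.053 to 0.27 and that of Oprm1 from -0.15 to 0.0098, and in cKO that of Pnoc from -0.52 to 0.21. The causes were not tested. Median-of-ratios and quantile scaling, a pseudocount of 1, both filters, the compared groups alone and no intensity trend left the number of members called in each comparison as it was.

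Same-numbered libraries of different groups did not deviate together on average (mean r -0.01 over 18 pairs, against 0.00 over 54 other pairs). Such an average cannot exclude that the numbers pair animals. A replicate block kept 0 members called in control and 1 in cKO, with Oprm1 in cKO at 0.62, and moved the called interactions over all genes from 108 to 27. Over all genes, calls in control ranged from 216 (mean of at least 5 TPM) to 3287 (no fold change minimum), and in cKO from 218 (without cKO cocaine 2) to 3147 (TPM as deposited). In the mean effect TPM as deposited gave 2346 calls. For cKO against control they ranged from 0 to 27 after saline and from 0 to 17 after cocaine, and for the interaction from 1 to 220. Depth is unknown, so its limit on Oprd1 and Oprk1 could not be set.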
